A study of Mus musculus with 11 samples.

Results

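The cytochrome P450 genes of the mouse airway were taken as all protein-coding genes whose symbol is Cyp followed by a family number, a subfamily letter and a gene number. The rule found 94 genes among the 21899 listed, and every gene of the annotation that fits it was listed. Cyp51 and symbols that end in a further letter lie outside it. RNA was sequenced from 11 libraries of wild type (WT) male BALB/c mice. The labels name the tissue trachea, while the study describes larger airways freed of lung parenchyma by blunt dissection, with the trachea left out. In the PBS group (3 libraries, labelled PBS), nonsensitized mice received saline alone. In the OVA/LPS/Vehicle group (4 libraries, labelled OL), mice were sensitized to the egg protein ovalbumin (OVA) with alum, challenged with OVA through the nose, given the bacterial product lipopolysaccharide (LPS) through the nose, and then given vehicle into the trachea. The OVA/LPS/GGsTop group (4 libraries, labelled OLG) had the same sensitization and challenges and received GGsTop, an inhibitor of γ-glutamyl transferase, in place of vehicle. Values per library are given below in the order PBS 1, 2 and 3, OVA/LPS/Vehicle 12, 34, 56 and 78, and OVA/LPS/GGsTop 1, 2, 3 and 4. The labels do not say what the paired digits of the vehicle libraries stand for, nor that each library is a single animal, so that p-values measure the spread between these libraries, which may be technical.

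Cytochromes P450 are heme enzymes that insert an atom of oxygen into their substrates. Those of the endoplasmic reticulum receive electrons from NADPH through P450 oxidoreductase, and those of mitochondria through ferredoxin. Families 1 to 3 are best known for the metabolism of drugs and inhaled toxicants, family 4 for the hydroxylation of fatty acids and eicosanoids, and the other families for retinoic acid, vitamin D, bile acids, oxysterols and steroid hormones. In the airway, club cells are rich in smooth endoplasmic reticulum and P450 enzymes, which makes them a target of toxicants such as naphthalene that become reactive when oxidized.

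Expression was deposited as FPKM, a fragment count scaled to exon length and to the library total, and the steps of the values gave totals of 14513136 to 18632382 fragments per library. Of the 94 genes, 67 had a fragment in at least 1 library, 36 had one in every library, and 27 were at 0 throughout. At 0 in all libraries were 13 of the 24 genes of subfamilies Cyp2c, Cyp2j and Cyp2u, 4 of the 7 of family 3, 4 of the other 24 of family 2 and 6 genes elsewhere, among them Cyp7a1 (the rate-limiting enzyme of bile acid synthesis in liver), Cyp1a2 and the adrenal Cyp11b1. A count of 0, taken as allowing up to 3 fragments, leaves room for 0.0386 to 0.136 FPKM in these genes, depending on their length and on the library, and this covers counting error only. Requiring a mean FPKM of 0.5 or more across the 11 libraries left 30 genes to test, and 37 were expressed below it, with 1 to 293 fragments over the 11 libraries and at most 0.899 FPKM in any library. Just inside the filter was Cyp2ab1 with a mean of 0.503 FPKM, and just outside it Cyp2g1, a P450 of the olfactory mucosa, with a mean of 0.427 FPKM.

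A small number of genes carried nearly all P450 mRNA. Cyp2f2, the club cell P450 that activates naphthalene, gave 59.0% of the mean summed P450 FPKM, ranked 21 among all genes listed, and took between 54.2% and 63.2% of the sum in each library. Of the mean over all libraries, other large shares were those of Cyp4b1 (14.5%), a lung P450 of fatty acids and of the toxicant ipomeanol, Cyp2a5 (7.77%), which oxidizes nicotine and coumarin, and Cyp2b10 (5.31%), a target of the receptor CAR in liver. The place of Cyp2a5 among these genes differed between libraries, also relative to Cyp2b10. It lay above Cyp4b1 in OVA/LPS/Vehicle 56 and OVA/LPS/GGsTop 4. In PBS 1 and 3, at 14.6 and 10.3 FPKM, it lay below Cyp2s1, at 32.0 and 38.1 FPKM. Together Cyp2f2, Cyp4b1, Cyp2a5 and Cyp2b10 gave 86.5% of the mean sum. The summed FPKM of the 94 genes was 1474 to 1715 in the PBS group, 1138 to 1507 in the OVA/LPS/Vehicle group and 1565 to 2175 in the OVA/LPS/GGsTop group, and PBS overlapped with both other groups while these did not overlap with each other. As a share of all FPKM of a library it was 0.487 to 0.536% in PBS, 0.333 to 0.427% in OVA/LPS/Vehicle and 0.465 to 0.648% in OVA/LPS/GGsTop. By this share OVA/LPS/Vehicle lay below both other groups without overlap, and PBS overlapped with OVA/LPS/GGsTop.

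**Figure D1:**
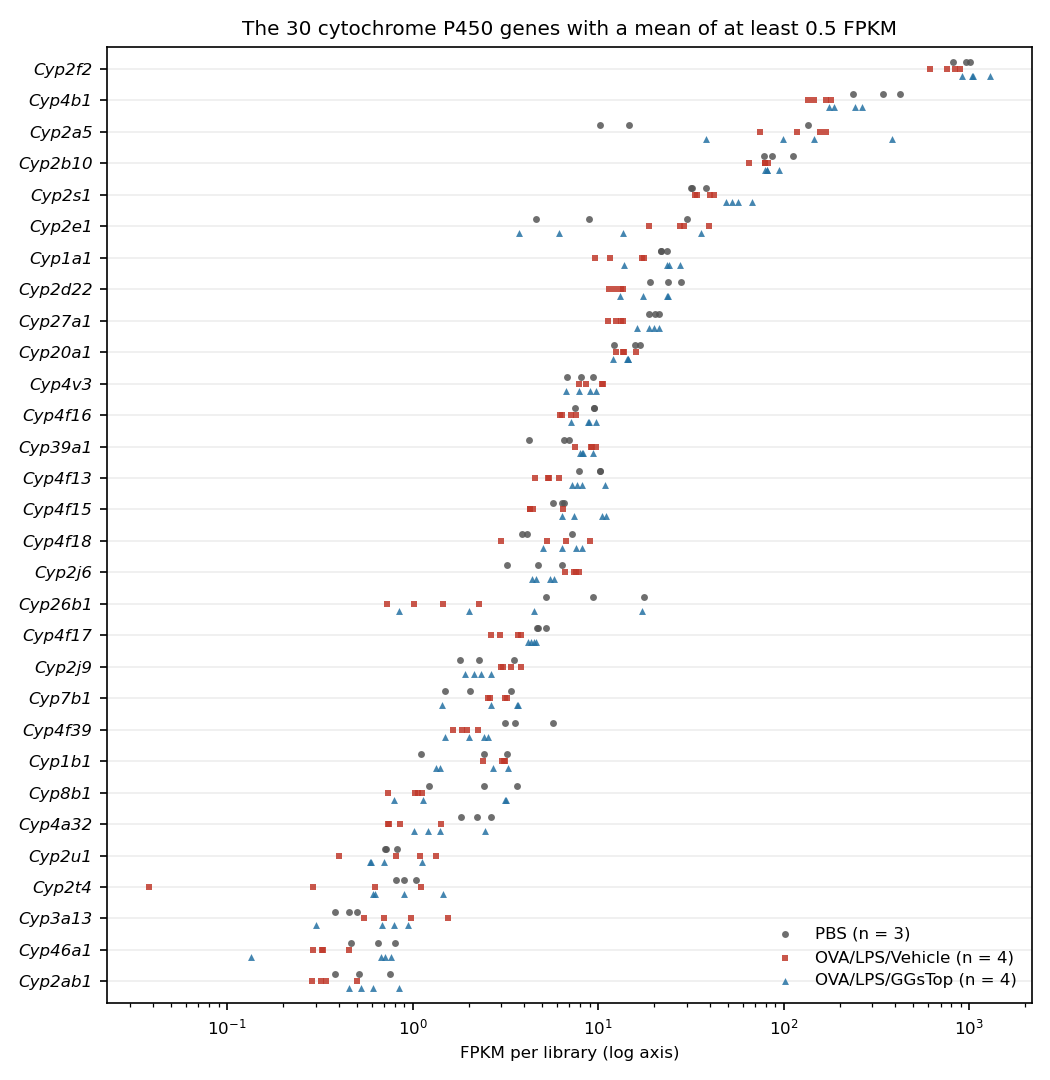
FPKM of the 30 tested P450 genes on a log axis, 1 point per library, with genes ordered by their mean over all libraries and the 3 groups offset vertically within each gene. Levels span from Cyp2f2 at 617 to 1293 FPKM down to Cyp2ab1 at 0.287 to 0.845 FPKM, and the widest spread between libraries among genes above 5 FPKM is that of Cyp2a5.

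Several libraries stood apart in markers of other tissues. The summed FPKM of 8 cartilage markers, with the matrix gene Acan as the most abundant, was 27.5, 79.6 and 0.763 in the PBS libraries, 24.4, 33.5, 12.2 and 21.2 in the OVA/LPS/Vehicle libraries and 1.51, 20.7, 0.920 and 81.8 in the OVA/LPS/GGsTop libraries, and Acan was at 0 in PBS 3 and in OVA/LPS/GGsTop 1 and 3. Of 9 adipocyte markers (most abundant, Cfd) the sum was 178, 474 and 45.4 in PBS, 1113, 367, 615 and 476 with vehicle and 55.4, 355, 32.9 and 516 with GGsTop. Airway epithelium was present throughout, since the summed FPKM of 11 club cell markers (most abundant, Scgb1a1) was between 34613 and 59416 and that of 12 ciliated cell markers (most abundant, Tppp3) between 374 and 981. So was alveolar tissue, at 10607 to 17005 in PBS, 5557 to 9108 in OVA/LPS/Vehicle and 4926 to 12431 in OVA/LPS/GGsTop for 11 markers (most abundant, Sftpc). The thyroid gene Tg was at 90.6, 166 and 303 FPKM in OVA/LPS/Vehicle 12, 34 and 56 and at 1.44 FPKM or less in the other 8 libraries. In addition, the dependence of expression on GC content differed between libraries, with slopes over 13987 genes, in log2 units for 10 points of GC, between -0.19 and -0.26 with vehicle and between 0.046 and 0.11 with GGsTop, at 0.061 and 0.048 for PBS 1 and 2, and at 0.53 for PBS 3. Mitochondrially encoded genes took 2.08 to 10.1% of all FPKM in PBS, 14.5 to 19.5% in OVA/LPS/Vehicle and 7.40 to 11.1% in OVA/LPS/GGsTop. In bulk tissue, fewer cells of a type and less RNA per cell cannot be told apart.

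To find how the P450 genes differed after OVA/LPS, the OVA/LPS/Vehicle group was compared with the PBS group. Of the 30 genes tested, 9 were lower and 2 were higher at an adjusted p under 0.05 in limma's test with Benjamini-Hochberg adjustment over 14004 genes, and 19 did not pass. Over all genes tested, 38% passed, 22.1% lower and 15.9% higher, so that the share of P450 genes called (36.7%) was near the background, while 30% of them were lower and 6.67% higher. The median log2 fold change of the 30 genes was -0.26, against -0.01 over all genes. The genes called lower were Cyp4b1, Cyp26b1, Cyp2d22, Cyp4f39, Cyp4a32, Cyp4f13, Cyp1a1, Cyp27a1 and Cyp4f17, and those called higher Cyp2j6 and Cyp39a1. Markers of several cell types moved in the same comparison, with 5 of 11 alveolar and 6 of 9 endothelial markers lower, 11 of 12 ciliated and 7 of 11 club cell markers higher, and their part in the P450 results was not tested. Leaving out 1 library at a time gave 8 (without PBS 3) to 15 (without PBS 2) called P450 genes. Over all genes, 1175 higher and 1889 lower were called without PBS 3, and 3045 and 3395 without PBS 2, against 2231 and 3096 with all libraries. With all libraries scaled to the same FPKM total, 11 genes were lower and 0 higher, but that scaling also moved the median of all genes to -0.15, and relative to it the P450 median was -0.23. After a correction for GC content, 8 were lower and 1 higher, of which 7 lower and 0 higher had been called without it.

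**Figure D2:**
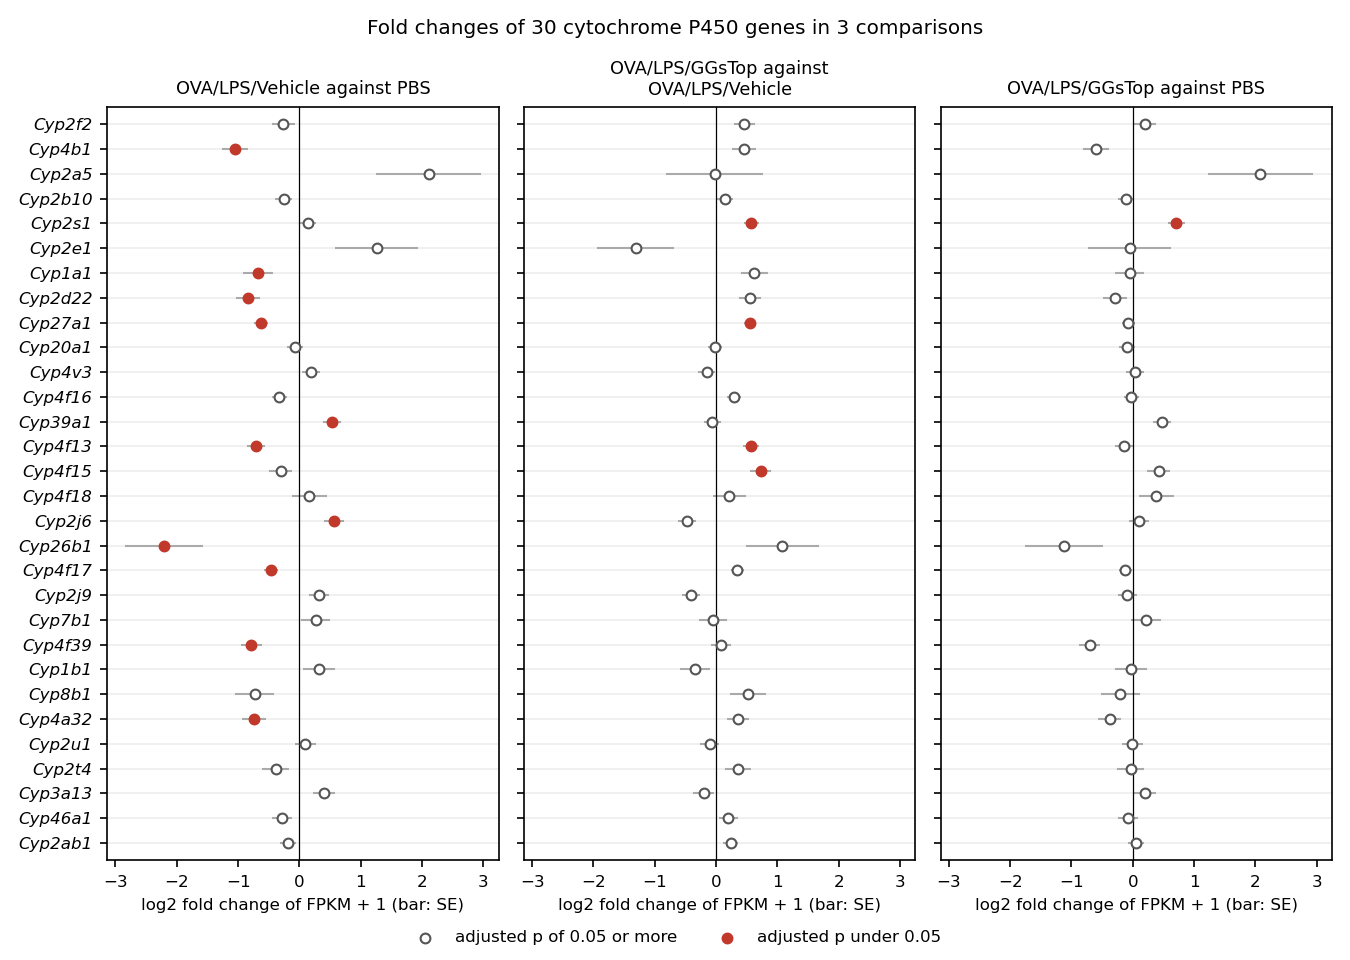
Log2 fold changes of FPKM + 1 with their standard errors for the 30 tested P450 genes in the 3 comparisons, with filled points at an adjusted p under 0.05. In OVA/LPS/Vehicle against PBS 9 filled points lie below 0 and 2 above it, in OVA/LPS/GGsTop against OVA/LPS/Vehicle 4 lie above 0, and in OVA/LPS/GGsTop against PBS Cyp2s1 is the 1 filled point.

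Of the genes called lower, Cyp4b1 differed most in FPKM. Its level was 342, 237 and 423 FPKM in the PBS libraries, 145, 181, 168 and 135 in the OVA/LPS/Vehicle libraries and 242, 187, 265 and 175 in the OVA/LPS/GGsTop libraries. Every OVA/LPS/Vehicle library was below every PBS library, and the group means were 334 ± 93.4 (SD, n = 3) and 157 ± 20.9 (SD, n = 4) FPKM (log2 fold change -1.05, SE 0.21, adjusted p = 0.00596). This call held under all alternatives and without any single library. The gene lies at chr4:115624725-115647723 on the minus strand (GRCm38, GENCODE M21), in the same cluster as Cyp4a32 at chr4:115600969-115621602, a fatty acid hydroxylase of its family. Cyp4a32 was at 2.64, 2.23 and 1.82 FPKM in the PBS libraries, 1.43, 0.741, 0.735 and 0.857 in the OVA/LPS/Vehicle libraries and 2.46, 1.21, 1.40 and 1.01 in the OVA/LPS/GGsTop libraries, again with no overlap between the PBS and vehicle libraries (log2 fold change -0.74, SE 0.19, adjusted p = 0.0141). Reads of Cyp4a32 may be shared with its near-identical Cyp4a neighbours, of which Cyp4a10, Cyp4a14, Cyp4a29 and Cyp4a31 were at 0.0315 FPKM or less, so its assignment is uncertain.

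In the Cyp4f cluster on chromosome 17, whose enzymes hydroxylate leukotrienes and long-chain fatty acids, 5 of 8 genes could be tested and 3 were lower. Cyp4f13 was at 10.2, 7.86 and 10.3 FPKM in the PBS libraries, 6.12, 5.34, 5.41 and 4.58 in the OVA/LPS/Vehicle libraries and 10.8, 8.16, 7.71 and 7.21 in the OVA/LPS/GGsTop libraries, and the vehicle libraries all lay below the PBS libraries (log2 fold change -0.71, SE 0.14, adjusted p = 0.00605). Cyp4f17 was at 4.69 to 5.22 FPKM in PBS and 2.65 to 3.85 in OVA/LPS/Vehicle, without overlap (log2 fold change -0.46, SE 0.11, adjusted p = 0.0112). Cyp4f39, which hydroxylates the very long fatty acids of skin ceramides, was at 3.58, 3.14 and 5.68 FPKM in PBS and 1.97, 2.24, 1.65 and 1.84 in OVA/LPS/Vehicle, without overlap (log2 fold change -0.78, SE 0.17, adjusted p = 0.00801). The other members of the cluster with enough signal were Cyp4f16, at 7.48 to 9.53 FPKM in PBS and 6.22 to 7.54 in OVA/LPS/Vehicle, and Cyp4f15, at 5.68 to 6.54 and 4.27 to 6.46. Both groups overlapped for these 2 genes, which did not pass (adjusted p = 0.0547 and 0.201). Outside the cluster, Cyp4f18, the leukotriene hydroxylase of neutrophils, was at 4.15, 3.89 and 7.204 FPKM in the PBS libraries, 6.68, 5.32, 2.98 and 9.0 in the OVA/LPS/Vehicle libraries and 7.55, 8.13, 5.06 and 6.41 in the OVA/LPS/GGsTop libraries, with wide overlap (adjusted p = 0.665). The sum of 9 neutrophil markers (most abundant, S100a9) was 108 to 352 FPKM in PBS, 143 to 266 in OVA/LPS/Vehicle and 152 to 303 in OVA/LPS/GGsTop. Cyp4v3, a fatty acid hydroxylase expressed in many tissues, was at 6.82 to 9.32, 7.91 to 10.6 and 6.72 to 9.68 FPKM in the 3 groups and did not pass in any comparison.

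Among the enzymes of drugs and toxicants, Cyp2d22 and Cyp1a1 were lower. Cyp2d22, a member of the subfamily that oxidizes many drugs, was at 23.6, 19.04 and 28.0 FPKM in the PBS libraries, 11.4, 13.3, 13.5 and 12.2 in the OVA/LPS/Vehicle libraries and 23.4, 17.5, 23.7 and 13.1 in the OVA/LPS/GGsTop libraries. The highest vehicle library lay below the lowest PBS library (log2 fold change -0.84, SE 0.19, adjusted p = 0.00899). Cyp2d22 was the 1 gene of the 8 in the Cyp2d cluster on chromosome 15 that passed the filter. Cyp1a1, the classical target of the aryl hydrocarbon receptor, was at 23.5, 21.7 and 21.9 FPKM in the PBS libraries, 9.65, 17.6, 11.6 and 17.3 in the OVA/LPS/Vehicle libraries and 23.5, 23.9, 27.7 and 13.8 in the OVA/LPS/GGsTop libraries. PBS and vehicle did not overlap, but the call was marginal (log2 fold change -0.67, SE 0.24, adjusted p = 0.0447) and was lost without the filter on low values (adjusted p = 0.065), with GC correction (adjusted p = 0.074), with scaling to a common median (adjusted p = 0.052) and in 7 of 11 fits that left out 1 library. Its family member Cyp1b1 was at 1.10 to 3.24 FPKM in PBS, 2.39 to 3.15 in OVA/LPS/Vehicle and 1.33 to 3.27 in OVA/LPS/GGsTop, with overlap throughout.

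The abundant Cyp2f2 and Cyp2b10 did not pass. Cyp2f2 was at 814, 1009.8 and 959.96 FPKM in the PBS libraries, 617, 896, 842 and 761 in the OVA/LPS/Vehicle libraries and 1030.4, 915, 1044 and 1293 in the OVA/LPS/GGsTop libraries. The vehicle and PBS libraries overlapped (log2 fold change -0.26, SE 0.18, adjusted p = 0.267). Cyp2b10 was at 85.9, 78.1 and 112 FPKM in the PBS libraries, 64.8, 81.9, 79.0 and 79.2 in the OVA/LPS/Vehicle libraries and 81.4, 81.5, 94.4 and 79.7 in the OVA/LPS/GGsTop libraries, with overlap between all groups (log2 fold change -0.25, SE 0.14, adjusted p = 0.158 for OVA/LPS/Vehicle against PBS). Cyp2s1, an epithelial P450 inducible by dioxin, was at 31.7 to 38.1 FPKM in PBS and 33.3 to 42.2 in OVA/LPS/Vehicle (log2 fold change 0.13, SE 0.13, adjusted p = 0.441), and the sign of this fold change turned with a common FPKM total. These 3 genes and Cyp2a5 belong to a cluster of 13 P450 genes at chr7:25802475-27158668 (GRCm38), of which 5 passed the filter and 0 were called in OVA/LPS/Vehicle against PBS. The fifth is Cyp2t4, at 0.0380 to 1.45 FPKM with 1 to 36 fragments per library. Cyp2a4, a close copy of Cyp2a5 in the same cluster, was at 0 in the 3 PBS libraries and at 0.0361 to 0.297 FPKM in the other 8, with at most 8 fragments in a library, and counting could have split reads between these copies.

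The retinoic acid hydroxylase Cyp26b1, which clears retinoic acid from tissue, was lower after OVA/LPS. It was at 17.6, 5.23 and 9.33 FPKM in the PBS libraries, 2.27, 1.45, 0.727 and 1.02 in the OVA/LPS/Vehicle libraries and 2.02, 17.3, 0.841 and 4.48 in the OVA/LPS/GGsTop libraries. Every vehicle library lay below every PBS library, a fall of 2.21 on the log2 scale (SE 0.64, adjusted p = 0.0209), and the PBS libraries themselves ranged from 5.23 to 17.6 FPKM. The call was lost with GC correction (adjusted p = 0.062) and without PBS 1, PBS 3 or OVA/LPS/Vehicle 56. The related Cyp26a1 and Cyp26c1 stayed below the filter, at most 0.579 and 0.148 FPKM in any library.

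Genes of bile acid and oxysterol metabolism went in both directions. Cyp27a1, the mitochondrial sterol hydroxylase, was at 20.1, 18.8 and 21.1 FPKM in the PBS libraries, 13.6, 12.4, 11.3 and 13.2 in the OVA/LPS/Vehicle libraries and 20.02, 18.7, 21.2 and 16.3 in the OVA/LPS/GGsTop libraries. The vehicle libraries formed a tight group below PBS (log2 fold change -0.63, SE 0.11, adjusted p = 0.00394), and the call was kept under all alternatives and without any single library. Cyp39a1, an oxysterol hydroxylase, was at 6.94, 6.57 and 4.25 FPKM in the PBS libraries, 7.48, 9.20, 9.18 and 9.68 in the OVA/LPS/Vehicle libraries and 7.96, 8.33, 8.18 and 9.34 in the OVA/LPS/GGsTop libraries. It was higher in OVA/LPS/Vehicle than in PBS without overlap (log2 fold change 0.53, SE 0.14, adjusted p = 0.0164), and the call was lost with GC correction (adjusted p = 0.124) and with scaling to a common FPKM total (adjusted p = 0.06). The oxysterol hydroxylase Cyp7b1 (1.502 to 3.39 FPKM in PBS, 2.53 to 3.23 in OVA/LPS/Vehicle) and Cyp8b1, the sterol hydroxylase that sets the balance of bile acids (1.22 to 3.66 and 0.737 to 1.12 FPKM), did not pass, and nor did Cyp46a1, the cholesterol hydroxylase of neurons, with no overlap for Cyp8b1 and Cyp46a1, the latter at 0.465 to 0.805 and 0.291 to 0.451 FPKM.

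Of the enzymes that oxidize arachidonic and linoleic acid, Cyp2j6 was higher after OVA/LPS. It was at 4.75, 6.39 and 3.23 FPKM in the PBS libraries, 7.84, 7.62, 7.43 and 6.66 in the OVA/LPS/Vehicle libraries and 4.38, 5.47, 4.61 and 5.77 in the OVA/LPS/GGsTop libraries, and the vehicle libraries all lay above the PBS libraries (log2 fold change 0.57, SE 0.17, adjusted p = 0.0214). With GC correction (adjusted p = 0.248), with a common FPKM total (adjusted p = 0.066) or without PBS 3 it was not called. Its neighbour Cyp2j9 was at 1.80 to 3.50 FPKM in PBS, 2.99 to 3.83 in OVA/LPS/Vehicle and 1.92 to 2.64 in OVA/LPS/GGsTop, and Cyp2u1, a fatty acid hydroxylase, at 0.709 to 0.824, 0.398 to 1.33 and 0.591 to 1.12 FPKM. Neither passed in any comparison. Cyp3a13, the 1 tested gene of family 3, was at 0.382 to 0.502 FPKM in PBS and 0.547 to 1.55 in OVA/LPS/Vehicle, with 14 to 71 fragments per library and no overlap between these groups (adjusted p = 0.101). Cyp20a1, a P450 with no known substrate, was the steadiest of the 30 genes, at 12.1 to 16.8, 12.5 to 16.1 and 12.03 to 14.5 FPKM. Counting groups without overlap, as for Cyp3a13, 11 tested P450 genes were lower and 3 higher in OVA/LPS/Vehicle, against 25.4% and 18.7% of all genes tested.

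Genes called lower and higher after OVA/LPS differed in the GC content of their transcripts. The longest transcripts of the 9 genes lower after OVA/LPS had a GC content of 49.6% to 56.7%, those of the 2 higher genes 42.7% and 43.7%, and the 19 genes that did not pass ranged from 42.4% to 58.5%, against a median of 49.9% over all genes tested. The GC slope of the libraries moved with the groups as given above, and its part in these results was not tested beyond the GC-corrected values. The 7 genes lower with and without GC correction were Cyp4b1, Cyp2d22, Cyp27a1, Cyp4f13, Cyp4f17, Cyp4f39 and Cyp4a32, with corrected log2 fold changes of -0.96, -0.64, -0.43, -0.45, -0.36, -0.61 and -0.71 respectively. Cyp20a1 was called lower (log2 fold change -0.31, adjusted p = 0.0391) and Cyp2s1 higher (0.48, adjusted p = 0.0227) with the correction and not without it.

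**Figure D3:**
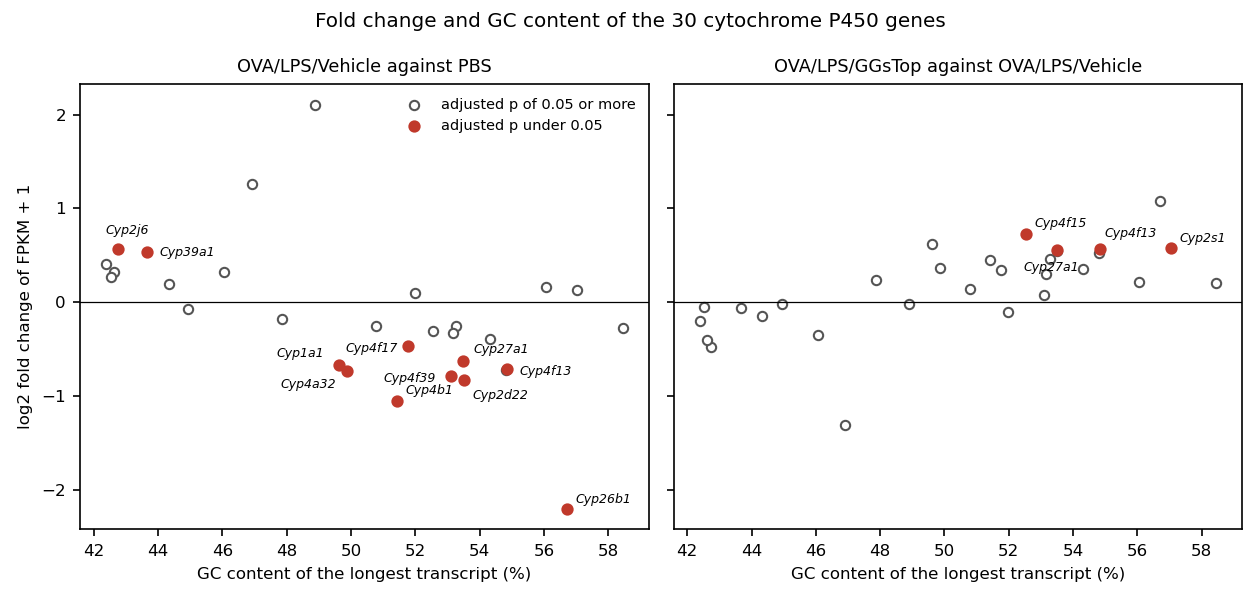
Log2 fold change of FPKM + 1 against the GC content of the longest transcript for the 30 tested P450 genes, in OVA/LPS/Vehicle against PBS (left) and OVA/LPS/GGsTop against OVA/LPS/Vehicle (right), with filled, named points at an adjusted p under 0.05. On the left the 2 genes called higher lie at 42.7% and 43.7% GC and the 9 called lower at 49.6% to 56.7%, and on the right the 4 genes called higher lie at 52.5% to 57.0%.

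To see how airways given GGsTop differed, the OVA/LPS/GGsTop group was compared with the OVA/LPS/Vehicle group. Of the 30 genes, 4 were higher, Cyp2s1, Cyp27a1, Cyp4f13 and Cyp4f15, and 0 were lower in limma's test, while without PBS 2 or PBS 3, and in a fit of these 2 groups alone, 2 were called lower. Over all genes 8.71% passed, 6.9% higher and 1.81% lower, beside 13.3% of the P450 genes. At an unadjusted p under 0.05, 10 P450 genes were higher and 2 lower, against 19.9% and 11% of all genes, and voom on the recovered fragments again called 4 higher and 0 lower. The median log2 fold change was 0.23 in the 30 genes and 0.03 in all genes. The calls, like those of all genes, depended on single libraries. Without OVA/LPS/Vehicle 34 or 56, or without OVA/LPS/GGsTop 1 or 3, 0 P450 genes passed. Over all genes, the 966 higher and 254 lower calls fell in these fits to 46 and 16, 25 and 10, 20 and 4, and 80 and 23. Without OVA/LPS/Vehicle 12 or 78 or OVA/LPS/GGsTop 2, 2 P450 genes passed. Without PBS 3, which enters this comparison through the shared estimate of spread, 8 P450 genes passed, beside 2144 higher and 1447 lower over all genes. With GC correction 1 gene, Cyp27a1, was called, beside 251 higher and 60 lower over all genes. With scaling to a common FPKM total 8 were, beside 2027 and 155. The OVA/LPS/Vehicle libraries enter this comparison as well as the previous one, so that the 2 sets of fold changes are not independent.

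The promoters of the genes that were higher with GGsTop are shown because these 4 members were called in the same direction in that comparison. RefSeq (GRCm38.p6) gave a window of 250 bases before to 50 bases after the start for 25 of the 30 tested genes. In each sequence, written 5′ to 3′ on the gene's strand, capitals mark the GC box GGGCGG or its reverse complement CCGCCC. The windows are those of Cyp2s1 (chr7:25816476-25816775, minus strand), Cyp27a1 (chr1:74713285-74713584, plus strand), Cyp4f13 (chr17:32947312-32947611, minus strand) and Cyp4f15 (chr17:32685409-32685708, plus strand).
Cyp2s1: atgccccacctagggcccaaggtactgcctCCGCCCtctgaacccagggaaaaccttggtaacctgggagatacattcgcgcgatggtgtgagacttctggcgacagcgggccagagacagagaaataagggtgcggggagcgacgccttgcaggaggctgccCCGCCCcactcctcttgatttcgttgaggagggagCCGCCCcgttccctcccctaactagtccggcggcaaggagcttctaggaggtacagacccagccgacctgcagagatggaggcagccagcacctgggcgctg
Cyp27a1: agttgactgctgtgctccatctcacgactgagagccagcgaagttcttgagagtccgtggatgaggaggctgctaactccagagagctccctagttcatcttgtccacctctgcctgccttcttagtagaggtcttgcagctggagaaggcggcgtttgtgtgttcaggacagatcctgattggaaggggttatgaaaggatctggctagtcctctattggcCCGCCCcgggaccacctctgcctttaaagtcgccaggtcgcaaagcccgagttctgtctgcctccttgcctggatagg
Cyp4f13: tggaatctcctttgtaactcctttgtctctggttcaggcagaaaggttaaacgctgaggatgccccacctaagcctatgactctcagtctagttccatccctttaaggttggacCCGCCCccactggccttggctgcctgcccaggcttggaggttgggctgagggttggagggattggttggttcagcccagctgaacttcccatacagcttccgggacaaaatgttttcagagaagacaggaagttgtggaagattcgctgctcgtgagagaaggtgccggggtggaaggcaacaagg
Cyp4f15: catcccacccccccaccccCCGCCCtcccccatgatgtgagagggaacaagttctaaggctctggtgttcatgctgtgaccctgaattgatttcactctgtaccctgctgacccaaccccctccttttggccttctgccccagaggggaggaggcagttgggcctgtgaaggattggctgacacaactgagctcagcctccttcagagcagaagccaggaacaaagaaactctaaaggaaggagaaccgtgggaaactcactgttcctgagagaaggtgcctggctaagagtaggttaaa
All 4 windows held the GC box on the reverse strand, 3 times in Cyp2s1 and once in each of the others. It was present on either strand in 12 of the 25 windows of tested genes and in 35.7% of the 32851 windows in the table. The CCAAT box (CCAAT or ATTGG) was found in Cyp27a1, Cyp4f13 and Cyp4f15 and not in Cyp2s1, and in 37.4% of all windows. The number of CG dinucleotides was 17 in Cyp2s1, 10 in Cyp27a1, 6 in Cyp4f13 and 2 in Cyp4f15, with a median of 7 over all windows, while the window of Cyp2f2 held 0.

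Cyp2s1 was the 1 P450 gene called higher with GGsTop than in both other groups. It was at 32.0, 31.7 and 38.1 FPKM in the PBS libraries, 33.3, 39.9, 33.99 and 42.2 in the OVA/LPS/Vehicle libraries and 56.9, 52.4, 48.6 and 67.5 in the OVA/LPS/GGsTop libraries, so that every OVA/LPS/GGsTop library lay above every other library. Its mean was 37.4 ± 4.39 FPKM (SD, n = 4) with vehicle and 56.4 ± 8.15 FPKM (SD, n = 4) with GGsTop (log2 fold change 0.58, SE 0.12, adjusted p = 0.0252). With GC correction the fold change against vehicle was 0.34 (adjusted p = 0.122). Against PBS it was 0.71 (SE 0.13, adjusted p = 0.0238). With the replicate number as a block, in PBS 1 to 3 and OVA/LPS/GGsTop 1 to 3 only, the fold change against PBS was 0.62 (adjusted p = 0.089). With the block and GC correction together it was 0.74 (adjusted p = 0.0262). The call against PBS was also lost in the fit of the 2 groups alone, without a block.

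Cyp27a1, at 13.6, 12.4, 11.3 and 13.2 FPKM with vehicle, was at 20.02, 18.7, 21.2 and 16.3 FPKM with GGsTop. The groups did not overlap (log2 fold change 0.55, SE 0.10, adjusted p = 0.019), and the GGsTop libraries overlapped with the PBS range of 18.8 to 21.1 FPKM. Cyp4f13 likewise had its vehicle libraries, 4.58 to 6.12 FPKM, below the GGsTop libraries, 7.21 to 10.8 FPKM (log2 fold change 0.57, SE 0.13, adjusted p = 0.0312). For Cyp4f15 the values were 4.27, 6.46, 4.29 and 4.46 FPKM with vehicle and 10.5, 6.37, 7.39 and 11.04 with GGsTop, and OVA/LPS/Vehicle 34 overlapped with OVA/LPS/GGsTop 2 (log2 fold change 0.73, SE 0.17, adjusted p = 0.0307). With GC correction the fold changes were 0.43 for Cyp27a1 (adjusted p = 0.0464), 0.39 for Cyp4f13 (adjusted p = 0.114) and 0.64 for Cyp4f15 (adjusted p = 0.0671). Cyp27a1 and Cyp4f13 were the 2 genes called lower in OVA/LPS/Vehicle than in PBS and higher in OVA/LPS/GGsTop than in OVA/LPS/Vehicle.

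**Figure D4:**
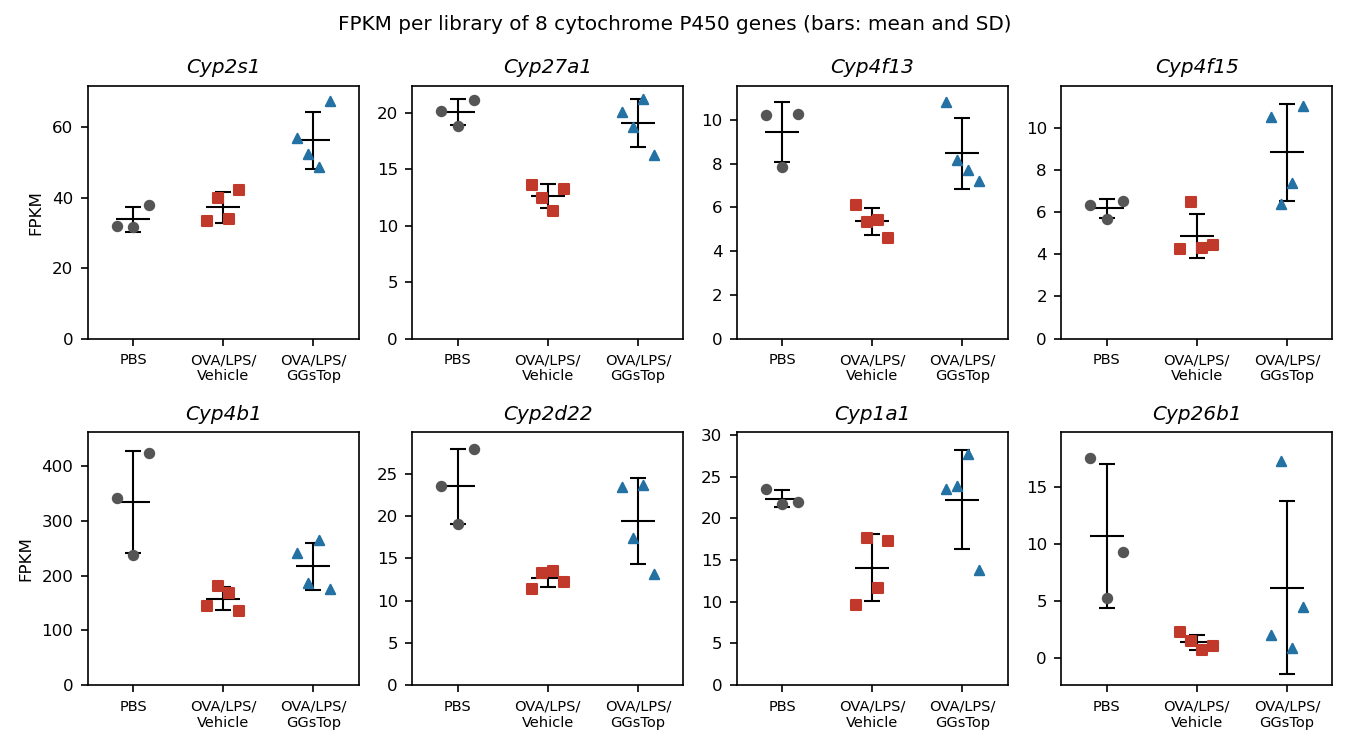
FPKM per library of 8 P450 genes, with points for libraries and bars for the group mean and SD (n = 3 for PBS, n = 4 for the other groups). The top row holds the 4 genes called higher with GGsTop, where Cyp2s1 is highest in the OVA/LPS/GGsTop libraries at 48.6 to 67.5 FPKM, and the bottom row 4 genes called lower in OVA/LPS/Vehicle than in PBS.

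The other genes that were lower after OVA/LPS did not pass in the comparison with GGsTop. Cyp4b1 was at 135 to 181 FPKM with vehicle and 175 to 265 with GGsTop, with overlap (log2 fold change 0.45, SE 0.20, adjusted p = 0.146). Cyp1a1 was at 9.65, 17.6, 11.6 and 17.3 FPKM with vehicle and 23.5, 23.9, 27.7 and 13.8 with GGsTop, where OVA/LPS/GGsTop 4 alone lay within the vehicle range (adjusted p = 0.09). Cyp2d22 was at 11.4, 13.3, 13.5 and 12.2 and 23.4, 17.5, 23.7 and 13.1 FPKM, where again OVA/LPS/GGsTop 4 lay within the vehicle range (adjusted p = 0.071). OVA/LPS/GGsTop 4 also had the highest Cyp2f2 and Cyp2a5 of all libraries. Cyp26b1 with GGsTop ranged from 0.841 FPKM in library 3 to 17.3 FPKM in library 2, and so overlapped with both other groups (adjusted p = 0.232). Cyp4f17 was at 2.65 to 3.85 FPKM with vehicle and 4.18 to 4.63 with GGsTop, without overlap, and missed the threshold (adjusted p = 0.0594), while Cyp4f39 was at 1.49 to 2.53 FPKM with GGsTop (adjusted p = 0.763) and Cyp4a32 at 1.01 to 2.46 FPKM (adjusted p = 0.192).

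Cyp2f2 was at 617, 896, 842 and 761 FPKM with vehicle and 1030.4, 915, 1044 and 1293 with GGsTop, without overlap, and did not pass (log2 fold change 0.46, SE 0.17, adjusted p = 0.0956). The aryl hydrocarbon target Cyp1a1 is shown with its RefSeq promoter (chr9:57697363-57697662, plus strand), in which capitals mark GCGTG, the core of the xenobiotic response element.
Cyp1a1: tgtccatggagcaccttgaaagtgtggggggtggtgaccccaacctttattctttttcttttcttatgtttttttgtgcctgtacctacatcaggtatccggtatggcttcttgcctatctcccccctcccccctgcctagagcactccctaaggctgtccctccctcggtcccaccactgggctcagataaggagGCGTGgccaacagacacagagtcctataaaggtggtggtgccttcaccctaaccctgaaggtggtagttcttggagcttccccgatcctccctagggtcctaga
The core or its reverse complement CACGC was found once in this window, as in 10 of the 25 windows of tested P450 genes, and in 32.4% of all windows. Bases further upstream were not searched, and whether this match is used was not tested. The TATA box (TATAAA or TTTATA) was found in this window, as in 6 of the 25 windows of tested P450 genes, and in 13.6% of all windows. The genes higher after OVA/LPS were at 7.84, 7.62, 7.43 and 6.66 FPKM with vehicle and 4.38, 5.47, 4.61 and 5.77 with GGsTop for Cyp2j6, with the GGsTop libraries all below (adjusted p = 0.071), and at 7.48 to 9.68 and 7.96 to 9.34 FPKM for Cyp39a1, with overlap (adjusted p = 0.786). Of the 30 tested P450 genes, 5 were higher and 2 lower with GGsTop than with vehicle without overlap, against 17.3% and 12.4% of all genes tested. Cyp2g1, below the filter and not tested, was at 0.502 to 0.899 FPKM with GGsTop and 0.139 to 0.421 with vehicle. It had 5 to 28 fragments per library.

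Cyp2a5 and Cyp2e1 varied widely between the libraries of a group. Cyp2a5 was at 14.6, 135 and 10.3 FPKM in the PBS libraries, 117, 156, 168 and 74.4 in the OVA/LPS/Vehicle libraries and 99.0, 146, 38.2 and 384 in the OVA/LPS/GGsTop libraries, so that 2 of the 3 PBS libraries were low and PBS 2 lay within the vehicle range (log2 fold change 2.11, SE 0.85, adjusted p = 0.0697). The fold change of Cyp2a5 was -0.03 in OVA/LPS/GGsTop against OVA/LPS/Vehicle (SE 0.79, adjusted p = 0.989). Cyp2e1, which oxidizes ethanol and small solvents, was at 8.89, 30.2 and 4.63 FPKM in the PBS libraries, 39.3, 18.9, 29.1 and 27.6 in the OVA/LPS/Vehicle libraries and 6.12, 13.6, 3.73 and 35.9 in the OVA/LPS/GGsTop libraries (adjusted p = 0.154 and 0.178 in the same comparisons). The lowest Cyp2e1 values were those of OVA/LPS/GGsTop 3, PBS 3, OVA/LPS/GGsTop 1 and PBS 1, which were also the 4 libraries with the lowest summed adipocyte markers, and the highest was that of OVA/LPS/Vehicle 12, which had the highest sum. The lowest Cyp2a5 values were those of PBS 3, PBS 1 and OVA/LPS/GGsTop 3, and PBS 3 and OVA/LPS/GGsTop 3 had the lowest cartilage sums. The cartilage sum of PBS 1 was 27.5 FPKM, and OVA/LPS/GGsTop 1, with a cartilage sum of 1.51 FPKM, had Cyp2a5 at 99.0 FPKM. The part of tissue makeup in these values was not tested. Of markers of the organs best known for P450 enzymes, 7 of 10 hepatocyte markers and 4 of 7 adrenal and gonadal markers were at 0 in at least 1 library, and their most abundant genes, Trf and Fdx1, are expressed in many tissues.

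**Figure D5:**
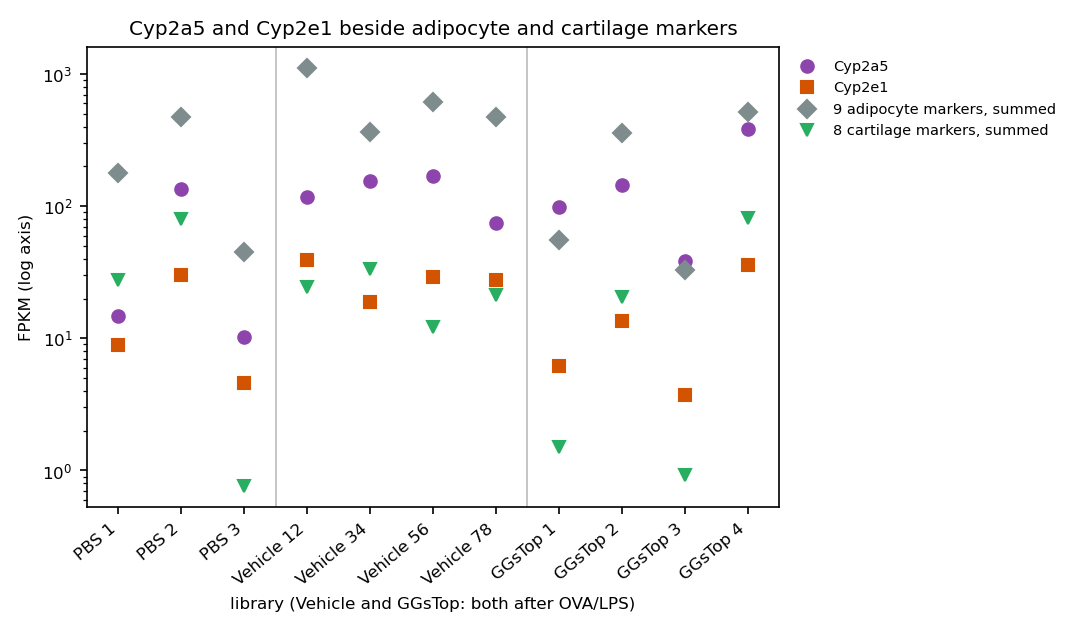
FPKM of Cyp2a5 and Cyp2e1 and the summed FPKM of 9 adipocyte and 8 cartilage markers in each of the 11 libraries, on a log axis, with vertical lines between the groups. Cyp2e1 is lowest in OVA/LPS/GGsTop 3 (3.73 FPKM) and PBS 3 (4.63 FPKM), which also have the 2 lowest adipocyte and cartilage sums.

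Against PBS, the OVA/LPS/GGsTop group had 1 P450 gene higher, Cyp2s1, and 0 lower, where 2.88% of all genes passed, 2.06% higher and 0.821% lower. By library, 0 P450 genes passed without PBS 1, PBS 3 or OVA/LPS/GGsTop 1 or 2, and 4 passed without PBS 2. Over all genes, the 288 higher and 115 lower calls fell to 21 and 8, 39 and 17, 27 and 9, and 113 and 30. They rose to 955 and 642 without PBS 2. At an unadjusted p under 0.05, 4 were higher and 2 lower, against 10.7% and 9.79% of all genes, and voom called 1 higher and 0 lower. The median log2 fold change was -0.04 in the 30 genes and 0.01 in all genes. Among the tested P450 genes, groups did not overlap for 2 higher with GGsTop (Cyp2s1 and Cyp39a1) and 2 lower (Cyp4f17 and Cyp4f39), against 7.22% and 7.54% of all genes. Below the filter and not tested, Cyp2g1 and Cyp2a4 also lay higher without overlap. Cyp2g1 was at 0.18 to 0.371 FPKM in PBS and 0.502 to 0.899 with GGsTop, and Cyp2a4 at 0 and at 0.119 to 0.229. Cyp4f39, at 1.49, 2.41, 2.02 and 2.53 FPKM, had a log2 fold change of -0.70 against PBS that just missed the threshold (SE 0.17, adjusted p = 0.0543, and 0.0365 with GC correction). For Cyp27a1 and Cyp4f13 the fold changes against PBS were -0.07 (SE 0.11) and -0.15 (SE 0.14), with adjusted p = 0.719 and 0.584. Cyp4b1 had -0.60 (SE 0.21, adjusted p = 0.148), Cyp4f15 0.42 (SE 0.18, adjusted p = 0.222), Cyp2f2 0.20 (SE 0.18, adjusted p = 0.549), Cyp2b10 -0.11 (SE 0.14, adjusted p = 0.669) and Cyp2a5 2.08 (SE 0.85, adjusted p = 0.2). The fold change of Cyp2b10 against vehicle was 0.14 (SE 0.13, adjusted p = 0.458).

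P450 enzymes depend on partners that supply electrons and heme, receptors that control their genes, and enzymes that act on their products. Of 79 such genes listed in the file, 67 were tested. In OVA/LPS/Vehicle against PBS 13 were higher and 19 lower, in OVA/LPS/GGsTop against OVA/LPS/Vehicle 12 were higher and 1 lower, and in OVA/LPS/GGsTop against PBS 2 were higher and 0 lower. The split after OVA/LPS was 6 higher and 26 lower with a common FPKM total and 7 higher and 15 lower with GC correction, and without PBS 1, PBS 3 or OVA/LPS/Vehicle 34, 56 or 78 it was 2 to 5 higher and 16 to 20 lower. Their median log2 fold changes were -0.09, 0.13 and -0.01 in the 3 comparisons. The partners as a share called, 47.8%, 19.4% and 2.99%, stand beside 38%, 8.71% and 2.88% of all genes. By direction, 19.4% of partners were higher and 28.4% lower after OVA/LPS, beside 15.9% and 22.1% of all genes. With GGsTop against vehicle, 17.9% were higher and 1.49% lower, beside 6.9% and 1.81%. The count with GGsTop against vehicle was 0 without OVA/LPS/GGsTop 1, 1 to 6 without OVA/LPS/Vehicle 12, 34, 56 or 78 or OVA/LPS/GGsTop 2 or 3, and 20 without PBS 3. That with GGsTop against PBS was 1 to 14 in the fits without 1 library, with 14 without PBS 2 and 5 without OVA/LPS/GGsTop 3. That after OVA/LPS was 19 without PBS 3. The calls over all genes fell or rose in these fits as well.

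Alas1, the rate-limiting enzyme of heme synthesis, was called higher in all 3 comparisons. It was at 36.4, 35.2 and 41.6 FPKM in the PBS libraries, 43.5, 51.2, 52.3 and 55.6 in the OVA/LPS/Vehicle libraries and 83.7, 73.4, 94.5 and 90.0 in the OVA/LPS/GGsTop libraries, so that the 3 groups did not overlap. The log2 fold changes were 0.41 in OVA/LPS/Vehicle against PBS (SE 0.12, adjusted p = 0.0222), 0.74 in OVA/LPS/GGsTop against OVA/LPS/Vehicle (SE 0.11, adjusted p = 0.0126) and 1.15 in OVA/LPS/GGsTop against PBS (SE 0.12, adjusted p = 0.00142). The last was called under all alternatives, also without any single library, while the first was lost with a common FPKM total and without any of 5 libraries. Of the 12 heme genes, 3 others were lower in OVA/LPS/Vehicle than in PBS, beside 22.1% of all genes. Ppox, the oxidase near the end of the pathway, was among them at 11.5 to 12.9 FPKM in PBS and 7.48 to 8.78 with vehicle (log2 fold change -0.55, SE 0.10, adjusted p = 0.00499), and it was higher with GGsTop at 10.8 to 14.0 FPKM (log2 fold change 0.53, SE 0.10, adjusted p = 0.019), a call lost with GC correction (adjusted p = 0.0523). Alad, which forms porphobilinogen, was at 22.7 to 32.3 FPKM in PBS and 14.4 to 15.4 FPKM after OVA/LPS (log2 fold change -0.76, SE 0.14, adjusted p = 0.00451).

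Of the 9 tested redox partners, 3 were lower and 1 higher in OVA/LPS/Vehicle against PBS, beside 22.1% and 15.9% of all genes. With GGsTop against vehicle 2 were higher, beside 6.9% of all genes. Por, which passes electrons from NADPH to the microsomal P450 enzymes, was at 50.2, 63.7 and 72.0 FPKM in the PBS libraries, 51.5, 56.3, 44.9 and 47.3 in the OVA/LPS/Vehicle libraries and 83.9, 86.9, 69.6 and 111 in the OVA/LPS/GGsTop libraries. The GGsTop libraries all lay above the vehicle libraries (log2 fold change 0.79, SE 0.15, adjusted p = 0.0204), and with GC correction adjusted p was 0.0673. Fdxr, the mitochondrial ferredoxin reductase, was at 5.61 to 6.79 FPKM in PBS and 2.55 to 3.70 with vehicle (log2 fold change -0.78, SE 0.15, adjusted p = 0.0047). The cytochrome b5 reductase Cyb5r3 was at 79.3 to 119 FPKM in PBS and 52.2 to 57.2 FPKM with vehicle (log2 fold change -0.73, SE 0.14, adjusted p = 0.00494). With GGsTop it was at 67.8 to 81.0 FPKM (log2 fold change against vehicle 0.46, SE 0.13, adjusted p = 0.0488). With GC correction neither Fdxr after OVA/LPS (adjusted p = 0.0593) nor Cyb5r3 with GGsTop (adjusted p = 0.121) was called. Its relative Cyb5r1 was at 9.91 to 13.2 FPKM in PBS and 6.46 to 8.59 FPKM after OVA/LPS (log2 fold change -0.58, SE 0.13, adjusted p = 0.00776).

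Among 15 tested receptors, 6 were lower and 3 higher after OVA/LPS, beside 22.1% and 15.9% of all genes. With GGsTop 3 were higher than with vehicle, beside 6.9% of all genes. The oxysterol receptor Nr1h2, the retinoic acid receptor Rarg and their partner Rxrb were lower after OVA/LPS, with log2 fold changes of -0.95, -0.67 and -0.64 and adjusted p = 0.00366, 0.00635 and 0.00653. The same 3 genes were higher with GGsTop than with vehicle by 0.63, 0.51 and 0.46 (adjusted p = 0.029, 0.0371 and 0.0447). They are GC-rich, at 60.6%, 58.8% and 61.4%. With GC correction Nr1h2 alone of them was called in the comparison with GGsTop (adjusted p = 0.0496), and after OVA/LPS the fold changes became -0.55, -0.28 and -0.24, with Rarg no longer called (adjusted p = 0.00726, 0.149 and 0.0434). The receptor of dioxin, Ahr, chosen after its values were seen, was at 16.6 to 24.2 FPKM in PBS, 16.2 to 19.8 with vehicle and 11.4 to 14.9 with GGsTop and was not called in any comparison (adjusted p = 0.0569 for GGsTop against vehicle, without overlap), and CAR (Nr1i3), also so chosen, was at most 0.0568 FPKM in any library.

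Of 31 tested conjugation and oxidation enzymes, 8 were higher and 7 lower after OVA/LPS, beside 15.9% and 22.1% of all genes. With GGsTop 5 were higher and 1 lower than with vehicle, beside 6.9% and 1.81% of all genes. The aldehyde oxidase Aox3 was at 28.0, 24.6 and 25.0 FPKM in the PBS libraries, 12.03, 17.2, 12.9 and 14.6 in the OVA/LPS/Vehicle libraries and 21.4, 19.1, 20.1 and 23.97 in the OVA/LPS/GGsTop libraries. Vehicle lay below both other groups without overlap (log2 fold change -0.83, SE 0.13, adjusted p = 0.00348 against PBS, and log2 fold change 0.55, SE 0.12, adjusted p = 0.0241 for GGsTop against vehicle). Glutathione transferase Gstm1 was at 379 to 468 FPKM in PBS, 204 to 251 with vehicle and 291 to 376 with GGsTop (log2 fold change -0.87, SE 0.14, adjusted p = 0.00365, and log2 fold change 0.54, SE 0.13, adjusted p = 0.031), and Gstm2 at 121 to 143 FPKM in PBS and 77.0 to 91.3 with vehicle (log2 fold change -0.59, SE 0.11, adjusted p = 0.00451). Cbr2, the carbonyl reductase of club cells, was at 1443 to 2065 FPKM with vehicle and 3158 to 3524 with GGsTop (log2 fold change 0.86, SE 0.19, adjusted p = 0.0261). With GC correction neither Gstm1 (adjusted p = 0.0748) nor Cbr2 (adjusted p = 0.0733) was called with GGsTop, and Cbr2 was not called without the filter on low values (adjusted p = 0.154). The aldehyde dehydrogenase Aldh1a7 was the 1 gene of the list higher with GGsTop than in PBS, at 49.4 to 66.8 FPKM in PBS and 81.7 to 87.9 with GGsTop (log2 fold change 0.60, SE 0.13, adjusted p = 0.0401). It was called in 9 of 15 alternatives, and neither with the replicate block (adjusted p = 0.0901) nor in the fit of the 2 groups alone. Of the 11 fits that left out 1 library, 3 kept the call of Aldh1a7, with adjusted p up to 0.131 in limma's test.

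The 3 P450 enzymes listed outside the symbol rule were kept apart from the counts. Prostacyclin synthase, Ptgis, was at 41.2, 33.6 and 55.0 FPKM in the PBS libraries, 17.4, 23.2, 17.7 and 20.2 in the OVA/LPS/Vehicle libraries and 36.3, 31.8, 32.0 and 36.9 in the OVA/LPS/GGsTop libraries. The vehicle libraries lay below all others (log2 fold change -1.08, SE 0.16, adjusted p = 0.00337 against PBS, and log2 fold change 0.78, SE 0.15, adjusted p = 0.0198 for GGsTop against vehicle), and both calls were kept with GC correction. The call against PBS was kept without any single library. That of GGsTop against vehicle was kept in 8 of 11 such fits and lost without OVA/LPS/Vehicle 56 or OVA/LPS/GGsTop 1 or 3. The sum of 9 endothelial markers (most abundant, Cldn5) was 1275 to 2513 FPKM in PBS, 917 to 1109 with vehicle and 694 to 1575 with GGsTop, and its part was not tested. Thromboxane synthase, Tbxas1, was at 1.09 to 1.99, 0.945 to 2.26 and 1.73 to 2.89 FPKM and the sterol demethylase Cyp51 at 6.70 to 12.4, 8.81 to 10.7 and 6.74 to 8.30 FPKM, with overlap between PBS and vehicle and no call. The GGsTop libraries all lay below the vehicle libraries for Cyp51 and overlapped with them for Tbxas1.

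The remaining P450 enzymes with a hormonal or vitamin substrate were hardly expressed. Of the 6 genes of steroid hormone synthesis, 4 had a fragment and 0 passed the filter, with Cyp11a1, the enzyme that opens the pathway from cholesterol, highest at 0.0138 to 0.269 FPKM in PBS, 0.183 to 0.295 with vehicle and 0.215 to 0.264 with GGsTop. The 3 vitamin D enzymes also stayed below the filter. Cyp27b1, which activates vitamin D, was at 0, 0.276 and 0.0626 FPKM in the PBS libraries, 0.0752, 0.0983, 0.0244 and 0.209 in the OVA/LPS/Vehicle libraries and 0.155, 0.268, 0.172 and 0.158 in the OVA/LPS/GGsTop libraries, values that correspond to few fragments and that overlapped between all groups.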

How the data were processed

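RNA sequencing values of 11 libraries (3 PBS, 4 OVA/LPS/Vehicle, 4 OVA/LPS/GGsTop) were used as the authors deposited them, in FPKM per Ensembl gene. Per the submitters' processing notes, the tools included cutadapt 1.15, HISAT2 2.0.5 and HTSeq 0.9.1 with the build mm39. How reads of near-identical genes (Cyp2a, Cyp2b, Cyp2c, Cyp2d, Cyp3a, Cyp4a, Cyp4f) were counted is not given in the sources used here, so that their split is uncertain. Names, lengths, GC content (of the longest transcript) and positions came from GENCODE M21 (GRCm38), which held 21846 of the 21899 identifiers, and promoters from RefSeq.

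Whole fragments were recovered from the steps of the FPKM values. Within 0.02 of a whole number in every library were 98.0% of genes. Depth limits the precision of low genes, and limits for counts of 0 use 3 fragments.

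limma 3.58.1 (R 4.3.3) with a mean-variance trend was fitted on the log2(FPKM + 1) scale in 1 model of 3 groups, for the 14004 genes that reached a mean of 0.5 FPKM. P-values were adjusted by Benjamini-Hochberg over all genes tested and called under 0.05. A fold change on this scale understates that of low genes. The fit was tested on simulated data. Alternatives were another pseudocount (0.1), other filters (a mean of 1 FPKM, none), 3 scalings, trend, robust and weighted fits, GC correction by a spline with 5 degrees of freedom, the 2 groups alone, each library left out, a replicate block, and, chosen after seeing the data, voom on the recovered fragments. PBS and OVA/LPS/GGsTop share the numbers 1 to 3 in the labels, which do not say that these libraries are paired. The deviations of same-numbered libraries correlated with r = 0.16, 0.62 and 0.40, and PBS 1 correlated more with OVA/LPS/GGsTop 3 (r = 0.42). Same-numbered libraries were treated as paired in the blocked fit because each r was over 0.1, a threshold that does not establish a pairing. That fit held PBS 1 to 3 and OVA/LPS/GGsTop 1 to 3 only.

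Genes named are those called in any comparison, those with a mean of 5 FPKM or more, the highest of each role, those next to the filter, up to 3 called partners per list and comparison, and the highest of each marker list. Members and lists were chosen with earlier results of these data known. Cyp1b1, Cyp2a4, Cyp2j9, Cyp2t4, Cyp2u1, Cyp7b1, Cyp8b1, Cyp46a1, Cyp26a1, Cyp26c1, Cyp7a1, Cyp1a2, Cyp11b1 and the other Cyp4a genes were named after their values were seen.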

Additional observations from a re-analysis of the deposited data

Results flagged for a closer look

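In the 52 groups of 4 libraries of the 26 named P450 genes, Dixon's ratio passed its critical value in 5, and chance gives about 1 in 20. Cyp2b10 was low in OVA/LPS/Vehicle 12, at 64.8 FPKM against 79.0 to 81.9 in the other libraries of the group, and high in OVA/LPS/GGsTop 3, at 94.4 FPKM against 79.7 to 81.5. Cyp20a1 was low in OVA/LPS/GGsTop 4, at 12.03 FPKM against 14.4 to 14.5. Cyp4f15 was high in OVA/LPS/Vehicle 34, at 6.46 FPKM against 4.27 to 4.46. Cyp27b1 was high in OVA/LPS/GGsTop 2, at 0.268 FPKM against 0.155 to 0.172, which are values of few fragments.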

How the results depend on the processing

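The settings were compared for 58 fold changes of named genes. Cyp2f2, Cyp4b1, Cyp2a5, Cyp2b10 and the members called in a comparison with GGsTop entered in every comparison. Other named genes entered only where called, so that the share called follows in part from this choice. Of the 58, 42 were called, and 0 of these turned their sign. Over settings other than leaving out a library, called genes kept the call in 507 cases and lost it in 41. Over fits without 1 library they kept it in 352 and lost it in 110. Array weights gave 18, 15 and 5 called P450 genes for vehicle against PBS, GGsTop against vehicle and GGsTop against PBS, and 28 and 26 partner genes in the last 2. Over all genes they called 3443 higher and 4473 lower, 3232 and 1982, and 1379 and 1178. Of the P450 genes with GGsTop against vehicle, 3 were lower with array weights and 2 in the fit of the 2 groups alone. A common FPKM total gave 8 and 2 P450 genes with GGsTop against vehicle and against PBS, and 20 partner genes with GGsTop against vehicle. Over all genes it called 2027 higher and 155 lower, and 252 and 245. GC correction gave 1 and 2 P450 and 5 and 4 partner genes, beside 251 higher and 60 lower, and 421 and 188, over all genes. Fits of the 2 groups alone gave 8 and 0 P450 and 20 and 1 partner genes, beside 2119 higher and 1406 lower, and 30 and 9. A common median gave 5 and 1 partner genes, voom with size factors 7 with GGsTop against vehicle, no filter 1 with GGsTop against PBS, and the total without mitochondrial genes 2 P450 genes there. In OVA/LPS/GGsTop against PBS the replicate block paired PBS 1 to 3 with OVA/LPS/GGsTop 1 to 3 by number and held no other library. It left 0 P450 genes and 1 partner gene, and the calls of Cyp2s1 and Aldh1a7 and no other were lost. Both were also lost, without pairing, in the fit of the 2 groups alone, so that the loss cannot be assigned to the pairing.

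Without 1 library, partner genes numbered 19 to 33 after OVA/LPS, 0 to 20 with GGsTop against vehicle and 1 to 14 with GGsTop against PBS, and P450 genes 0 to 8 and 0 to 4 in the last 2. Calls over all genes moved with the same libraries, as given above. Among the 58 fold changes, signs turned only in values not called. With a common FPKM total these were Cyp2s1 after OVA/LPS (-0.038) and Cyp2a5 with GGsTop against vehicle (0.071). With block and GC correction they were Cyp27a1 (0.0696) and Cyp4f13 (0.00995) with GGsTop against PBS. Without 1 library they were Cyp2a5 with GGsTop against vehicle (-0.58 to 0.52) and Cyp2b10 with GGsTop against PBS (-0.22 to 0.037). Outside the 58, further values not called turned sign with GC correction. Among them were Cyp4v3 (0.19 to -0.08) and Cyp46a1 (-0.28 to 0.10) after OVA/LPS, and Cyp39a1 with GGsTop against vehicle (-0.06 to 0.16). The share of higher genes among all calls was 41.9%, 79.2% and 71.5%, and 21.2%, 92.9% and 50.7% with a common FPKM total, which moved the median of all genes to -0.15, 0.11 and -0.06. With a common median it was 47.1%, 49.3% and 72.5%. The cause of these changes was not tested. Genes of few fragments cannot show small differences at this depth.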
